A study of Homo sapiens with 12 samples.

Results

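In HCT116 cells that carried both EHF and CDX1, 1605 of 15853 tested genes left the range that the control line and the 2 single-factor lines spanned. At 961 of these genes all EHF+CDX1 libraries exceeded the highest of the 9 others, and at 644 all of them fell short of the lowest. Their difference from additivity, called the interaction here, is the EHF effect measured with CDX1 present minus the EHF effect measured without it, both as log2 fold changes. It is 0 when the effects of the factors add on the log2 scale, which is the same as their fold changes multiplying. At 607 of the 1605 genes the interaction differed from 0 by more than 1.5-fold in edgeR (adjusted p under 0.05). Over all tested genes it was called higher at 20.2% and lower at 18%, so separated genes were not called more often. Of the 607, 411 were separated above with a higher interaction and 185 were separated below with a lower one. Of the rest, 8 were separated above with a lower interaction and 3 below with a higher one. The separation rule was meant to keep out genes at which the CDX1 line alone moved away, but it requires no margin. Genes at which EHF+CDX1 lay barely outside 3 lines, with CDX1 far off, therefore remain. The gap exceeded 1.5-fold at 207 of the 411 and at 4 of the 185. Separation and interaction were read from the same libraries, so their coincidence is a description and was not tested.

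EHF is an epithelial transcription factor of the ETS family, whose members bind sites built around a GGAA core. CDX1 is a caudal-type homeodomain factor of the intestinal epithelium, where CDX factors bind AT-rich sites at genes for enterocyte structure and digestion. Factors that occupy the same promoters or enhancers can act together so that their joint effect exceeds what their separate effects predict. Colonocytes build a brush border of microvilli on their apical surface as they differentiate, and poorly differentiated colorectal cancers lose many of the genes for it.

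The study asked whether EHF and CDX1 act together in differentiation of HCT116, a poorly differentiated human colorectal cancer line. HCT116 EV cells carried the empty pcDNA vector, HCT116 EHF cells a pcDNA3.1-EHF plasmid, and both were kept as geneticin-resistant clones. HCT116 CDX1 cells received CDX1 from the MSCV-IRES-GFP-CDX1 retrovirus and were sorted for GFP, and HCT116 EHF+CDX1 cells were those CDX1 cells transfected with the EHF plasmid and selected as geneticin-resistant clones. Each line has 3 RNA-seq libraries. The study describes its RNA-seq replicates as biological but gives a smaller number of them than the libraries analysed here, and the labels do not say that the 3 came from separate cultures, so p-values measure the spread between these libraries, which may be in part technical. Clone, vector and selection cannot be told apart from the factors, because each combination of factors is 1 line, and in bulk RNA fewer cells and less RNA per cell cannot be told apart.

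Libraries held 13523007 to 74186741 counts, and 3 counts corresponded to 0.0375 to 0.207 CPM (counts scaled to library size). Levels below are CPM after trimmed-mean (TMM) scaling, given as mean ± SD over the 3 libraries of a line, and changes are log2 fold changes ± SE. EHF stood at 335, 326 and 236 CPM in the EV libraries, 19030, 19640 and 19260 in EHF, 12, 13 and 11.9 in CDX1 and 17110, 19890 and 19120 in EHF+CDX1. CDX1 had at most 1 count in any EV library and at most 4 in any EHF library, 525 ± 35.8 CPM in CDX1 cells and 5419 ± 277 CPM in EHF+CDX1 cells. The EHF+CDX1 line therefore differed from the CDX1 line in its CDX1 level as well as in EHF, and the interaction includes that difference. The EHF baselines also differed, with means of 299 CPM in EV and 12.3 CPM in CDX1. EHF itself thus changed by 6.01 ± 0.18 log2 units without CDX1 and by 10.57 ± 0.22 with it, and the interaction includes that difference too. CDX1 is itself 1 of the 961 genes separated above. EV replicate 3 stood apart from its line, with a root mean square distance of up to 0.724 log2 units from its partners against at most 0.284 within the other lines. Summed epithelial markers (EPCAM, CDH1, KRT8, KRT18, KRT19, CLDN7, ELF3) ranged from 2730 to 3340 CPM in CDX1 libraries and from 4470 to 5670 CPM elsewhere.

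Across all tested genes the interaction was called higher at 3195 (20.2%) and lower at 2847 (18%). Separation above took 6.06% and separation below 4.06% of the tested genes. EHF against EV was called higher at 5.67% and lower at 2.64%, CDX1 against EV higher at 21.3% and lower at 23.2%, and EHF+CDX1 against EV higher at 7.3% and lower at 3.1%. All but 607 of the called interactions lay at genes whose EHF+CDX1 libraries were not separated. The median interaction over all genes was 0.05. Scaling by total counts instead of TMM moved that median to 0.37 and the calls to 4419 higher and 1963 lower, so that 69.2% of the calls were higher against 52.9% with TMM.

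**Figure D1:**
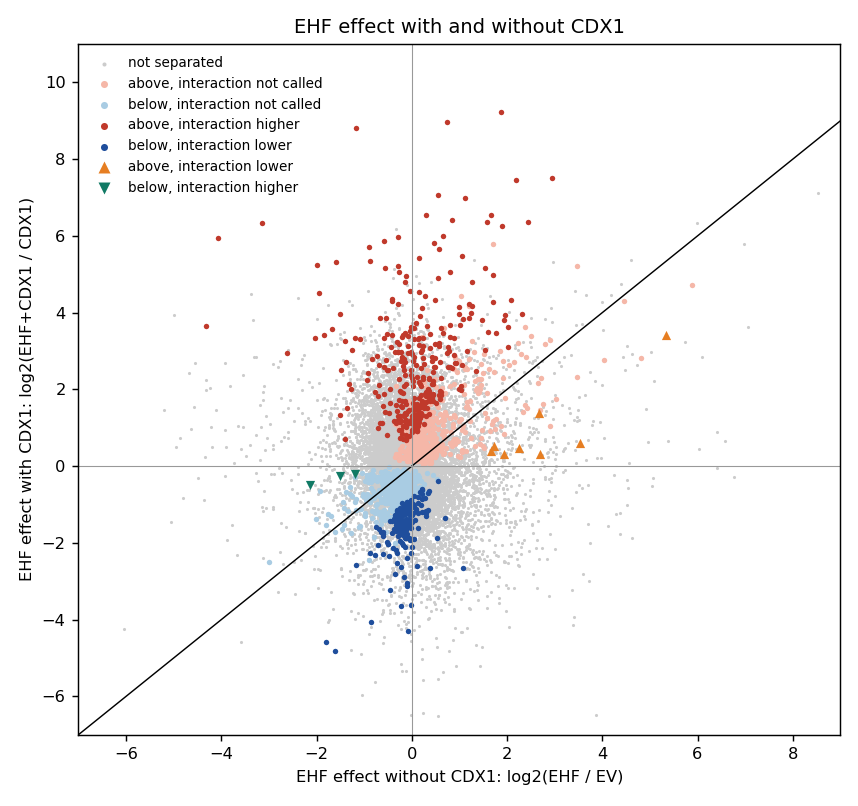
EHF effect without CDX1 (HCT116 EHF against EV, log2, horizontal) and with CDX1 (EHF+CDX1 against CDX1, log2, vertical) for 15451 tested genes, of which 1412 are separated genes. The black line marks equal effects; genes above it have a positive interaction. The genes separated above with a higher interaction spread upward over EHF effects near 0, with a median of 0.04 without CDX1 and 2.82 with it. Not drawn are 396 genes with a line at 3 counts or fewer in every library, 4 genes outside the axes, and the transgenes EHF and CDX1.

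Neither EHF nor CDX1 alone was called against EV at 184 of the 411 genes that were separated above with a higher interaction (44.8%, against 52.7% of all tested genes). Their levels varied widely, with EHF+CDX1 means from 0.535 to 513 CPM. Their median level was 0.346 CPM in EV, 0.386 in EHF, 0.256 in CDX1 and 5.02 in EHF+CDX1. All lay above EV by the separation rule, and EHF+CDX1 against EV was called higher, beyond 1.5-fold, at 131 of them. CDX1 alone was lower than EV at another 192 (46.7%, against 23.2% of all tested genes). A low CDX1 line raises the interaction, so the choice of these genes favours that call. At the 192 the median level was 12.1 CPM in EV, 12.7 in EHF, 4.13 in CDX1 and 19.9 in EHF+CDX1. Of them, 63 were called higher, beyond 1.5-fold, in EHF+CDX1 than in EV. The distance between the nearest EHF+CDX1 library and the nearest other library exceeded 2-fold at 112 of the 184 genes and at 38 of the 192. EHF alone was higher at 24 of the 411 (5.84%) and lower at 16 (3.89%), against 5.67% and 2.64% of all tested genes. CDX1 alone was higher at 12 (2.92%, against 21.3%). The median interaction of the 411 was 2.71, or 2.69 with lines at 3 counts or fewer set to 3 counts. A total of 120 of the 411 passed the filter on low counts only through their EHF+CDX1 libraries. The EHF+CDX1 level also exceeded the sum of the single-factor differences on the linear CPM scale at all 411. That follows from their selection, because a gene highest in EHF+CDX1 with a positive log2 interaction is also above additivity on the linear scale.

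Genes of the colonocyte surface were among the 411. VIL1 encodes villin, which bundles the actin core of microvilli. It stood at 0, 0 and 0.11 CPM in the EV libraries, 0.372, 0.105 and 0.262 in EHF, 0, 0.126 and 0.129 in CDX1 and 50.8, 47.6 and 53.1 in EHF+CDX1. It was near the limit of detection in 9 libraries and abundant in the other 3, with an interaction of 7.35 ± 1.54 (edgeR adjusted p = 0.00248). Without EV replicate 3, the only EV library with a VIL1 count, the fitted interaction was 3.04 with an edgeR adjusted p of 1, while the EHF+CDX1 libraries were unchanged.

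CDH17, the liver-intestine cadherin, showed the same arrangement with counts in every line. Its libraries read 0.0431, 0.237 and 0.239 CPM in EV, 0.266, 0.378 and 0.212 in EHF, 0.197, 0.354 and 0.154 in CDX1 and 33.5, 30.9 and 30.9 in EHF+CDX1. The EV, EHF and CDX1 libraries overlapped and the EHF+CDX1 libraries lay above them, as the separation rule requires. The interaction was 6.50 ± 0.63 (edgeR adjusted p = 9.48e-06). GPA33, a cell-surface glycoprotein of intestinal epithelium, measured 0.129, 0.142 and 0.0368 CPM in EV, 0.16, 0.21 and 0.15 in EHF, 0.0876, 0.126 and 0 in CDX1 and 18.2, 19.3 and 19.6 in EHF+CDX1. All 3 EV libraries held at most 3 GPA33 counts, so no fitted fold is given for it. LGALS4, a galectin of enterocyte apical rafts, had more in every CDX1 library (1.53, 0.707 and 0.695 CPM) than in any EV (0, 0.237 and 0.368 CPM) or EHF library (0.16, 0.105 and 0.2 CPM), and reached 35.5, 34.6 and 36.4 CPM with both factors. Its interaction was 5.73 ± 0.81 (edgeR adjusted p = 0.000173).

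KRT20 is the intermediate filament keratin of differentiated colonocytes. It was lower in EHF than in EV cells and higher in EHF+CDX1 than in CDX1 cells. EHF+CDX1 and CDX1 cells also differed in their CDX1 level. KRT20 levels were 1.77, 0.994 and 1.58 CPM in EV, 0.372, 0.252 and 0.175 in EHF, 1.36, 1.59 and 1.39 in CDX1 and 12.3, 10.5 and 10.8 in EHF+CDX1. The EHF libraries lay below all other libraries and the EHF+CDX1 libraries above them. The EHF effect was -2.61 ± 0.29 without CDX1 (edgeR adjusted p = 0.000193) and 2.96 ± 0.23 with it (edgeR adjusted p = 1.74e-06), which gave an interaction of 5.57 ± 0.37 (edgeR adjusted p = 5.81e-07). The 250 bases before the KRT20 start are printed because they hold letters of both factor families (RefSeq, GRCh38.p14, chr17:40885243-40885492, minus strand, 5′ to 3′ toward the start, with GGAAGT at 106 and TCATAAA at 30 bases before the start in capitals).

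KRT20: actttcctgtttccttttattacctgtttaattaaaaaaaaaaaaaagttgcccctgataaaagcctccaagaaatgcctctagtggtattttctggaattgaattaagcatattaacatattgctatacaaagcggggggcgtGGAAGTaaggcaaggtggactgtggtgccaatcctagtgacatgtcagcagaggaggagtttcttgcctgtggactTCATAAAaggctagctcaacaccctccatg

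GGAAGT, searched on both strands as an ETS-type motif, occurred in 19.9% of the 27305 promoter windows of that RefSeq table. Any of 3 CDX-type motifs, searched on both strands and spelled TTTATTG in its usual form, TTTATGG as a variant and TTTATGA as a further variant (the reverse complement of the letters in KRT20), occurred in 8.96% of them. Among the tested genes with a window the shares were 22.7% for the ETS-type and 4.76% for the CDX-type motifs. A match of letters is a description of the window and not a binding site. RefSeq windows were found for 77.1% of the 411 genes and 76.3% of all tested genes, so a comparison of motif shares over these sets is void.

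EPS8L3 and TMPRSS4 changed direction in the same way. EPS8L3, of the EPS8 family of actin regulators, read 3.14, 2.41 and 7.92 CPM in EV, 0.106, 0.21 and 0.287 in EHF, 1.18, 1.42 and 1.16 in CDX1 and 15.6, 16.2 and 15.9 in EHF+CDX1. Its EHF effect was -4.32 ± 0.46 without CDX1 (edgeR adjusted p = 8.41e-05) and 3.66 ± 0.38 with CDX1 (edgeR adjusted p = 1.48e-05), and the interaction was 7.98 ± 0.60 (edgeR adjusted p = 1.3e-06). For TMPRSS4, a transmembrane serine protease, the libraries read 1.94, 1.89 and 4.37 CPM in EV, 0.479, 0.861 and 0.762 in EHF, 1.42, 1.39 and 1.67 in CDX1 and 35.4, 29.3 and 36.9 in EHF+CDX1. Its interaction was 6.45 ± 0.44 (edgeR adjusted p = 6.53e-07). In both genes the EHF libraries were the lowest group and the EHF+CDX1 libraries the highest, without overlap.

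The enterocyte and brush border list held 31 tested genes, of which 18 were separated above and 15 also had a higher interaction (48.4%, against 2.59% of all tested genes). Those 15 were EPS8L3, GPA33, PRAP1, USH1C, MYO1A, PHGR1, CA12, KRT20, LGALS4, CEACAM6, CEACAM1, MYO7B, VIL1, VILL and CDH17. TSPAN8, CEACAM5 and DPP4 were separated above without a called interaction. The median interaction of the list was 1.69 (1.72 with lines at 3 counts or fewer set to 3 counts), beside 0.05 over all genes. Of the 31 tested, 10 passed the filter on low counts only through their EHF+CDX1 libraries, 7 of them among the 15, so the filter itself raised the share. Among the other 21, 8 were separated above with a higher interaction. In EHF+CDX1 against EV, 17 of the 31 were called higher and 1 lower, against 7.3% and 3.1% of all tested genes. USH1C, MYO7B and MYO1A are parts of the microvillus linkage and its motors. Not all of the list went this way. The interaction was lower at 4 members, among them ANPEP, an apical peptidase (0.0429 ± 0.0743 CPM in EV, 0.433 ± 0.0385 in EHF, 3.2 ± 0.59 in CDX1 and 0.605 ± 0.144 in EHF+CDX1), and CA2, a carbonic anhydrase (15.3 ± 5.27 CPM in EV, 33.7 ± 1.23 in EHF, 97.5 ± 17.6 in CDX1 and 23 ± 0.631 in EHF+CDX1). ANPEP and CA2, named after their values were seen, were highest in the CDX1 line and were not separated. Without EV replicate 3, 19 of the list were separated above and 13 also had a higher interaction.

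**Figure D2:**
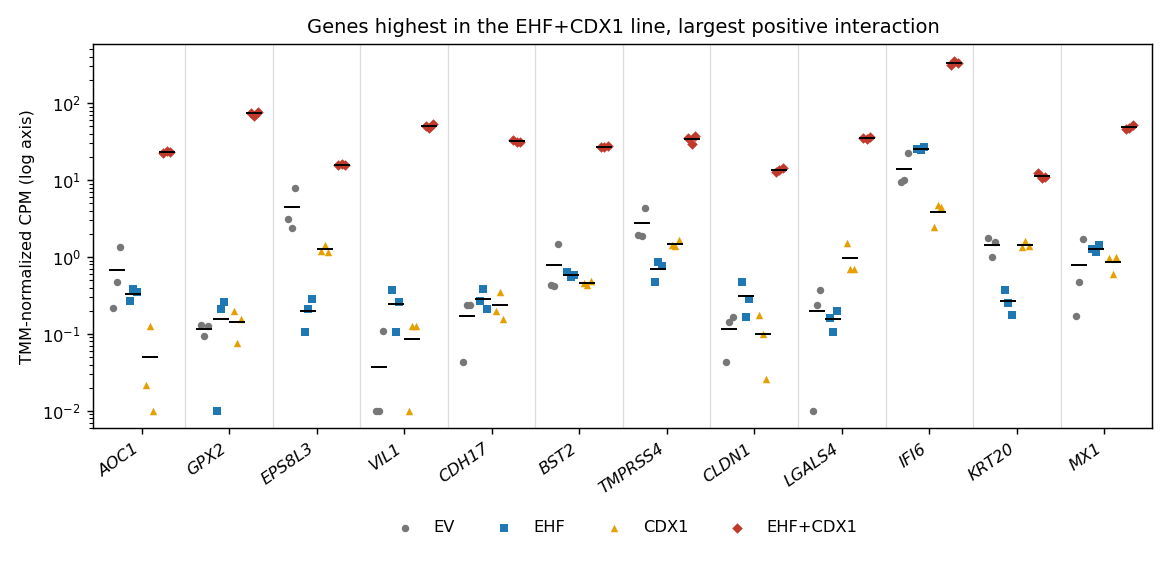
CPM in each library (log axis) of the 12 separated-above genes with the highest interactions among those that passed the level requirements for naming, by line. Points are libraries, horizontal bars are means of 3, and values of 0 are drawn at 0.01 CPM. In all 12 genes the 3 EHF+CDX1 points sit above the 9 others.

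Among the 12 genes named for the highest interactions, AOC1 had the largest. AOC1 encodes a diamine oxidase of the intestinal epithelium that breaks down histamine. Its libraries read 0.215, 0.473 and 1.34 CPM in EV, 0.266, 0.378 and 0.35 in EHF, 0.0219, 0.126 and 0 in CDX1 and 22.4, 23.7 and 22.9 in EHF+CDX1, and the interaction was 9.97 ± 0.85 (edgeR adjusted p = 3.3e-06). GPX2, the gastrointestinal glutathione peroxidase, read 0.129, 0.0947 and 0.129 CPM in EV, 0, 0.21 and 0.262 in EHF, 0.197, 0.0758 and 0.154 in CDX1 and 74.5, 68.4 and 77.3 in EHF+CDX1, with an interaction of 8.22 ± 0.87 (edgeR adjusted p = 1.75e-05). Both genes were near the limit of detection in most of the 9 libraries without both factors, and EV replicate 3 had the highest AOC1 level among them. Tight junction claudins formed another pair. CLDN1 averaged 0.117 ± 0.0649 CPM in EV, 0.311 ± 0.157 in EHF, 0.101 ± 0.0748 in CDX1 and 13.6 ± 0.761 in EHF+CDX1, with an interaction of 5.88 ± 0.80 (edgeR adjusted p = 0.000123). CLDN2, a pore-forming claudin, averaged 0.648 ± 0.211 CPM in EV, 1.47 ± 0.477 in EHF, 1.21 ± 0.245 in CDX1 and 33.9 ± 1.9 in EHF+CDX1, with an interaction of 3.55 ± 0.37 (edgeR adjusted p = 2.18e-05). Of 35 tested junction and adhesion genes, however, 6 were separated above, and the median interaction was -0.22. Of the 6, 3 had a higher interaction (CLDN1, CLDN2 and CLDN3, 8.57% of the list against 2.59% of all tested genes). Of these 3, 1 passed the filter on low counts only through its EHF+CDX1 libraries.

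Interferon response genes were the list with the highest share of separated members. Cells that sense type I or type III interferon activate transcription factor complexes that bind interferon-stimulated response elements at genes for antiviral proteins. Of 48 tested list members, 42 were separated above, and 31 of these had a higher interaction (64.6%, against 2.59% of all tested genes). The median interaction was 2.78 (2.88 with lines at 3 counts or fewer set to 3 counts). Of the 48 tested, 9 passed the filter on low counts only through their EHF+CDX1 libraries, 6 of them among the 31, and among the other 39, 25 were separated above with a higher interaction. EHF+CDX1 was called higher than EV at 40 of the 48, against 7.3% of all tested genes. EHF alone was higher at 12, against 5.67% of all tested genes. CDX1 alone was higher at 6 and lower at 11, against 21.3% and 23.2% of all tested genes, so the lower calls were near that share. Over the 31 genes the median level was 1.93 CPM in EV, 6.91 in EHF, 2.02 in CDX1 and 37.2 in EHF+CDX1. Without EV replicate 3, 42 were again separated above and 27 of the list were separated above with a higher interaction.

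BST2 encodes tetherin, which holds budding virus at the cell surface. Its libraries read 0.431, 0.426 and 1.47 CPM in EV, 0.638, 0.546 and 0.587 in EHF, 0.46, 0.429 and 0.489 in CDX1 and 26.9, 27.2 and 27.3 in EHF+CDX1, and the interaction was 6.47 ± 0.52 (edgeR adjusted p = 2.21e-06). Neither factor alone moved it out of the EV range. MX1, an antiviral GTPase, read 0.172, 0.473 and 1.73 CPM in EV, 1.28, 1.16 and 1.43 in EHF, 0.964, 0.606 and 1 in CDX1 and 45.9, 47.7 and 51.5 in EHF+CDX1, with an interaction of 5.35 ± 0.65 (edgeR adjusted p = 5.59e-05). IFI6, an interferon-induced membrane protein, read 9.43, 9.94 and 22.4 CPM in EV, 25.5, 24.3 and 26.5 in EHF, 2.48, 4.67 and 4.42 in CDX1 and 311, 348 and 329 in EHF+CDX1. CDX1 alone changed IFI6 by -1.88 ± 0.32 (edgeR adjusted p = 0.00113), and the interaction was 5.57 ± 0.44 (edgeR adjusted p = 2.31e-06).

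Among further members, named after their values were seen, OAS1, a sensor of double-stranded RNA, averaged 0.372 ± 0.11 CPM in EV, 1.91 ± 0.668 in EHF, 0.274 ± 0.0921 in CDX1 and 48.9 ± 2.48 in EHF+CDX1, with an interaction of 5.28 ± 0.45. IFIT1, which binds viral RNA, averaged 1.93 ± 0.61 CPM in EV, 10.8 ± 0.339 in EHF, 1.17 ± 0.257 in CDX1 and 96.2 ± 5.14 in EHF+CDX1, with an interaction of 3.92 ± 0.27. The pattern included an abundant member. ISG15, a ubiquitin-like modifier, averaged 80 ± 19.5 CPM in EV, 94.2 ± 3.61 in EHF, 72.7 ± 10.5 in CDX1 and 366 ± 23.6 in EHF+CDX1 (interaction 2.10 ± 0.22). The interaction of these 3 genes was called higher. Some members were separated above without a called interaction. HERC5, the ligase for ISG15, averaged 8.51 ± 1.55 CPM in EV, 25.4 ± 0.37 in EHF, 18.5 ± 1.6 in CDX1 and 43.8 ± 2.15 in EHF+CDX1, and its interaction was -0.34 ± 0.18 (edgeR adjusted p = 0.872). ISG20, an exonuclease, was the 1 member with a lower interaction (-1.92 ± 0.25) and was not separated.

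Antigen presentation genes, several of which interferon also induces, had fewer separated members. Of 24 tested, 6 were separated above (PSMB8, PSMB9, B2M, ERAP2, TAP1, TAP2) and 2 of these had a higher interaction (PSMB8 and PSMB9, subunits of the immunoproteasome). The 2 made up 8.33% of the list, against 2.59% of all tested genes. PSMB9 averaged 1.58 ± 0.136 CPM in EV, 5.92 ± 0.938 in EHF, 0.852 ± 0.172 in CDX1 and 12 ± 0.969 in EHF+CDX1, with an interaction of 1.88 ± 0.26 (edgeR adjusted p = 0.000466). Summed leukocyte markers were 2.75 to 12.2 CPM in EV, 38.4 to 41.1 in EHF, 90.4 to 99.4 in CDX1 and 55.2 to 60.6 in EHF+CDX1. Of the 10 marker genes 4 passed the filter on low counts. The interaction was lower at CD68, ITGAM and CD14 and higher at LYZ, the lysozyme of phagocytes and Paneth cells, which alone was separated above (0.133 ± 0.0785 CPM in EV, 0.178 ± 0.0834 in EHF, 0.0241 ± 0.0253 in CDX1 and 18.5 ± 0.816 in EHF+CDX1). The B-cell marker MS4A1 had no count in any line. The part of these levels in the interferon result was not tested.

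The promoters of 3 interferon members were chosen for display because each held matches to the element through which the family is known to be induced. The core of the interferon-stimulated response element, GAAA followed after any 2 bases by a further GAAA, was searched on both strands in the 250 bases before the RefSeq start. It occurred in 839 of 27305 windows (3.07%), and in 2.35% of the windows of tested genes. Of the 31 interferon genes that were separated above with a higher interaction, 26 had a window in the table, and 15 of these held it (57.7%). Over all tested members of the list, called or not, 21 of the 38 with a window held it (55.3%), so the share describes the list and not the called members. The windows of IFI6 (chr1:27672193-27672442, minus strand), BST2 (chr19:17405631-17405880, minus strand) and IFI44L (chr1:78620198-78620447, plus strand) are printed 5′ to 3′ toward the start in GRCh38.p14, with the matches in capitals.

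IFI6: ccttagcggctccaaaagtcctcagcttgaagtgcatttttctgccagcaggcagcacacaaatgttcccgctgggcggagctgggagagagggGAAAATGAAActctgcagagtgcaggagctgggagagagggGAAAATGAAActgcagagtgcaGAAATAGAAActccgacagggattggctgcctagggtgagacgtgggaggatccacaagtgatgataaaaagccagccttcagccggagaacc

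BST2: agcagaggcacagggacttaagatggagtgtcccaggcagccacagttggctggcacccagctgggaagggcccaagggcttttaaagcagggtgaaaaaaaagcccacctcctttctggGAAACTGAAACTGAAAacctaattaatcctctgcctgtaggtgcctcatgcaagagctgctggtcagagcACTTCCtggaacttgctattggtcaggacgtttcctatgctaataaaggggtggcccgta

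IFI44L: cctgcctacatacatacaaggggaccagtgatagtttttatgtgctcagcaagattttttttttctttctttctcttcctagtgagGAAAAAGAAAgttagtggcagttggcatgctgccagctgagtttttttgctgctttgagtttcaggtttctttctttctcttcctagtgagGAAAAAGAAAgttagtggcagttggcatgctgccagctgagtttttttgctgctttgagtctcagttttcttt

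IFI6 held 3 matches, which began 156, 115 and 93 bases before the start. BST2 held 2 that overlapped each other, at 130 and 124 bases, and 1 ETS-type match at 60 bases, also in capitals. IFI44L held 2, at 164 and 73 bases. IFI44L had 3 counts or fewer in each of the 9 other libraries and 3.63, 4.95 and 3.46 CPM in EHF+CDX1. No EHF or CDX1 binding was measured, and the matches say nothing about which factor acted there.

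A set of genes was detected only with both factors. Of the 961 genes separated above, 62 had at most 3 counts in each of the 9 other libraries, and 37 of them reached at least 1 CPM in each EHF+CDX1 library. By the same rule 1 gene was detected only in EV (C10orf126), 0 only in EHF and 4 only in CDX1 (IL1RL1, MAGEB1, TDRG1 and ARL2-SNX15). TXNIP, an inhibitor of thioredoxin and of glucose uptake, was the most abundant, at 39, 39.9 and 47 CPM in EHF+CDX1, which corresponded to 2231, 2101 and 680 counts, against at most 2 counts in any other library. ACSS1, a mitochondrial acetyl-CoA synthetase, reached 20.5 ± 0.7 CPM and AGR2, a disulfide isomerase of secretory cells, 8.3 ± 0.794 CPM. KCNE3, a potassium channel subunit of colonic crypts, had 0 counts in all 9 other libraries and 9.45, 9.3 and 11.8 CPM in EHF+CDX1. The other genes named by rank were AUTS2 (15.6 ± 1.31 CPM), LRATD1 (13.3 ± 0.226 CPM), UGT1A10 (10.1 ± 0.631 CPM) and XAF1 (7.65 ± 0.163 CPM), the last an interferon-inducible gene. UGT1A genes share their 3′ exons, so counts among them are uncertain. Fitted folds of genes without counts in a line depend on the prior count of the fit and are not given.

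Stem cell and goblet cell genes that mark other intestinal lineages were also among the separated genes. Of 19 tested stem cell markers 5 were separated above, against 6.06% of all tested genes. Of these 5, 3 had a higher interaction (ASCL2, TERT and SMOC2, 15.8% of the list against 2.59% of all tested genes), and the list median was 0.76. Of the 19, 4 passed the filter on low counts only through their EHF+CDX1 libraries, 2 of them among the 3. Among the other 15, 1 was separated above with a higher interaction. ASCL2, the basic helix-loop-helix factor of crypt base stem cells, averaged 0.106 ± 0.0968 CPM in EV, 0.00417 ± 0.00722 in EHF, 0.00842 ± 0.0146 in CDX1 and 7.32 ± 0.532 in EHF+CDX1. OLFM4, a secreted crypt base protein, had no count in EV and averaged 0.028 ± 0.0485 CPM in EHF, 0.0146 ± 0.0253 in CDX1 and 6.51 ± 0.555 in EHF+CDX1. LGR5, the R-spondin receptor, averaged 0.0205 ± 0.0216 CPM in EV, 0.299 ± 0.0891 in EHF, 0.273 ± 0.0143 in CDX1 and 5.51 ± 0.629 in EHF+CDX1. EV libraries held 3 counts or fewer of LGR5 and OLFM4, so that a log2 interaction for them rests on an undetected baseline. Of 21 goblet cell and mucin genes 7 were separated above, 3 with a higher interaction (MUC2, MUC13 and AGR2, 14.3% against 2.59% of all tested genes), and the median was 0.78. Of these 3, 1 passed the filter on low counts only through its EHF+CDX1 libraries. MUC13, a transmembrane mucin, was already higher with CDX1 alone and averaged 0.223 ± 0.349 CPM in EV, 0.264 ± 0.0742 in EHF, 6.4 ± 0.85 in CDX1 and 43 ± 1.7 in EHF+CDX1.

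Among 31 intestinal transcription factors, 4 were separated above with a higher interaction (12.9%, against 2.59% of all tested genes). BCL2L15, NR1I2 and MYB were among these. PPARG was separated below with a lower interaction (3.23%, against 1.17%). Of the 4, 1 passed the filter on low counts only through its EHF+CDX1 libraries. BCL2L15 encodes a Bcl-2 relative and not a transcription factor, and was counted because the list held it. CDX2, the paralogue of CDX1, read 28.9, 37.6 and 23.1 CPM in EV, 28.4, 32.8 and 32 in EHF, 37.3, 42.1 and 40.3 in CDX1 and 59, 55.9 and 58.9 in EHF+CDX1. Its EHF+CDX1 libraries lay above all others, and the interaction of 0.48 ± 0.20 missed the threshold (edgeR adjusted p = 0.62). ISX, an intestinal homeobox factor, had no count in EV and averaged 0.0815 ± 0.0224 CPM in EHF, 0.0591 ± 0.0811 in CDX1 and 3.59 ± 0.155 in EHF+CDX1. SOX9, GATA6 and ELF3 were not separated. SOX9, of crypt progenitors, averaged 60.4 ± 4.67 CPM in EV, 172 ± 4 in EHF, 155 ± 18 in CDX1 and 169 ± 9.5 in EHF+CDX1. SOX9 stood in each single-factor line at about its EHF+CDX1 level, and its interaction was -1.38 ± 0.14 (edgeR adjusted p = 0.000124). GATA6, a zinc finger factor, had its highest mean in CDX1 (22.6 ± 1.29 CPM), above EHF+CDX1 (17.8 ± 1.09 CPM), EHF (11.4 ± 0.433 CPM) and EV (4.62 ± 0.474 CPM), with an interaction of -1.66 ± 0.15 (edgeR adjusted p = 3.74e-05). ELF3, an ETS factor related to EHF, had an interaction of -1.15 ± 0.28 (edgeR adjusted p = 0.0265) that lost its call under several alternatives.

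DNA replication genes made up part of the second pattern, in which CDX1 alone was the lowest line. Of 47 tested, 8 were separated above and 5 of these had a higher interaction (AURKB, TOP2A, RRM2, CDC45 and CCNE2, 10.6% against 2.59% of all tested genes). CDX1 alone was called lower than EV at 30 of the 47 (against 23.2% of all tested genes). EHF+CDX1 against EV was called higher, beyond 1.5-fold, at none of them, against 7.3% of all tested genes. CDC45, of the replicative helicase, read 38.1, 36.1 and 23.8 CPM in EV, 26.8, 29.4 and 29.2 in EHF, 3.81, 3.41 and 4.19 in CDX1 and 39.8, 42.9 and 39.9 in EHF+CDX1. The interaction was 3.62 ± 0.23 (edgeR adjusted p = 5.08e-07), while the EHF+CDX1 libraries stood close above those of EV. RRM2, of ribonucleotide reductase, read 226, 238 and 56.7 CPM in EV, 219, 238 and 236 in EHF, 59.9, 43.9 and 46.5 in CDX1 and 332, 334 and 337 in EHF+CDX1. EV replicate 3 lay with the CDX1 libraries for RRM2 and apart from its partners, and the interaction was 2.32 ± 0.54 (edgeR adjusted p = 0.00768). TERT, the telomerase catalytic subunit, averaged 8.01 ± 0.69 CPM in EV, 8.48 ± 0.551 in EHF, 2.01 ± 0.258 in CDX1 and 12.3 ± 0.349 in EHF+CDX1. Over the list the interaction was higher at 26 and lower at 0, with a median of 1.55. Without EV replicate 3 it was higher at 42 and 8 genes were separated above with a higher interaction.

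Genes separated below lay close to the other lines. At the 185 with a lower interaction the median was -1.20, the median distance between the nearest EHF+CDX1 library and the nearest other library was -0.12 log2 units, and the distance exceeded 1.5-fold at 4. CDX1 alone was higher than EV at 114 of them (61.6%, against 21.3% of all tested genes) and neither factor was called at 71. A high CDX1 line lowers the interaction, so the choice of these genes favours that call and the 61.6% is only a description. Median levels were 49.2 CPM in EV, 45.5 in EHF, 102 in CDX1 and 37.2 in EHF+CDX1. All lay below EV by the separation rule, and EHF+CDX1 against EV was called lower, beyond 1.5-fold, at 18 of the 185. At the 114 genes the EHF+CDX1 line thus lacked a rise that CDX1 showed on its own. Scaling by total counts left 83 such genes, 78 of them among the 185.

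FOS, a subunit of the AP-1 transcription factor induced within minutes of growth signals, was among the 114. Its libraries read 53.7, 57.3 and 161 CPM in EV, 31.5, 30.5 and 26.9 in EHF, 751, 514 and 472 in CDX1 and 19.8, 21 and 20.5 in EHF+CDX1, and the interaction was -3.20 ± 0.50 (edgeR adjusted p = 0.000487). The CDX1 libraries lay far above the others and the EHF+CDX1 libraries below the EHF libraries. ARC, an immediate early gene best known in neurons, read 20.5, 20.9 and 35.3 CPM in EV, 25.2, 24.8 and 26.5 in EHF, 354, 192 and 197 in CDX1 and 19.9, 20.1 and 20 in EHF+CDX1, with an interaction of -3.62 ± 0.35 (edgeR adjusted p = 1.38e-05). For ARC the EHF+CDX1 libraries were the lowest by a narrow margin below EV. FOSB, another AP-1 subunit, had an interaction of -2.77 ± 0.91 (edgeR adjusted p = 0.038), a call that 10 of 12 omissions of 1 library ended. Of 39 immediate early and AP-1 genes tested, 7 were separated below and 4 of these had a lower interaction (FOS, FOSB, FOSL2 and ARC, 10.3% against 1.17% of all tested genes). The interaction was lower at 22 of the 39 and higher at 0, with a median of -1.76. CDX1 alone was higher at 25 (against 21.3% of all tested genes). JUN, which was not separated and was named after its values were seen, averaged 31.3 ± 24.1 CPM in EV, 113 ± 2.22 in EHF, 1574 ± 148 in CDX1 and 133 ± 8 in EHF+CDX1. Without EV replicate 3 the interaction was lower at 31 of the 39, and 4 genes were separated below with a lower interaction.

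**Figure D3:**
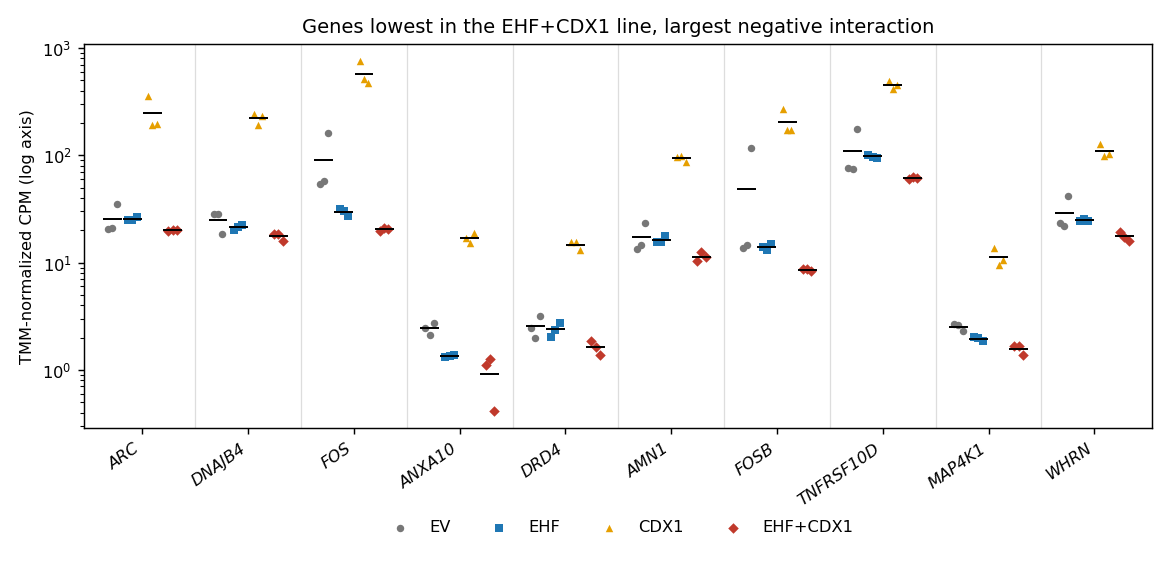
CPM in each library (log axis) of the 10 separated-below genes with the lowest interactions among those that passed the level requirements for naming, by line. Points are libraries, horizontal bars are means of 3, and values of 0 would be drawn at 0.01 CPM. The CDX1 points are the highest in these genes and the EHF+CDX1 points the lowest, often just under EV or EHF.

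DNAJB4, an HSP40 co-chaperone, read 28.6, 28.2 and 18.6 CPM in EV, 20.3, 21.4 and 22.2 in EHF, 242, 192 and 233 in CDX1 and 18.4, 18.5 and 15.9 in EHF+CDX1, with an interaction of -3.42 ± 0.22 (edgeR adjusted p = 6.65e-07). TNFRSF10D, a decoy receptor for the death ligand TRAIL, read 76.4, 74.5 and 175 CPM in EV, 102, 97.5 and 94.7 in EHF, 491, 415 and 458 in CDX1 and 60.8, 62.7 and 61.9 in EHF+CDX1, with an interaction of -2.72 ± 0.37 (edgeR adjusted p = 0.000222). In both genes the CDX1 libraries were the highest without overlap. ANXA10, an annexin known from gastric epithelium, had 17.1, 15.1 and 18.9 CPM in CDX1 and 1.1, 1.25 and 0.415 in EHF+CDX1, with 2.46, 2.13 and 2.74 in EV and 1.33, 1.34 and 1.38 in EHF. The other genes named by rank were DRD4, a dopamine receptor (-3.04 ± 0.28), AMN1 (-2.95 ± 0.26), MAP4K1, a kinase of JNK signalling (-2.45 ± 0.25), and WHRN, a scaffold protein of stereocilia (-2.41 ± 0.29), each value being the interaction ± SE. S100A14, an S100 calcium-binding protein, was lowest with both factors and highest with CDX1 alone. It read 277, 258 and 255 CPM in EV, 186, 185 and 185 in EHF, 544, 578 and 531 in CDX1 and 139.5, 134 and 147 in EHF+CDX1, with an interaction of -1.46 ± 0.11 (edgeR adjusted p = 1.29e-05). CDKN1C, the cyclin-dependent kinase inhibitor p57, averaged 12.2 ± 0.933 CPM in EV, 15 ± 1.28 in EHF, 16.8 ± 2.72 in CDX1 and 6.78 ± 0.317 in EHF+CDX1, with an interaction of -1.61 ± 0.19 (edgeR adjusted p = 0.000212).

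At 8 genes both factors together gave the highest level and yet less than the product of the single effects. All 8 were higher than EV in the EHF line and in the CDX1 line, and their median interaction was -1.70. At COBLL1 and SPRY1 each single-factor line already had much of the EHF+CDX1 level. COBLL1, a relative of the actin nucleator cordon-bleu, averaged 1.28 ± 0.494 CPM in EV, 8.7 ± 0.353 in EHF, 10.8 ± 1.38 in CDX1 and 13.5 ± 1.41 in EHF+CDX1 (interaction -2.38 ± 0.29). SPRY1, a feedback inhibitor of receptor tyrosine kinases, averaged 1.18 ± 0.242 CPM in EV, 5.73 ± 0.517 in EHF, 5.78 ± 0.816 in CDX1 and 8.05 ± 0.427 in EHF+CDX1 (interaction -1.77 ± 0.24). SNTB1, a syntrophin, averaged 0.328 ± 0.0875 CPM in EV, 12.6 ± 0.814 in EHF, 1.73 ± 0.334 in CDX1 and 18.5 ± 0.4 in EHF+CDX1 (interaction -1.91 ± 0.27). The scale decides the direction here for 2 of the 8. On the linear CPM scale SNTB1 exceeded the sum of the single differences by 4.45 CPM and ARSJ did so by 0.04 CPM.

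At 3 genes the mirror image was seen, with the lowest level in EHF+CDX1 and a higher interaction. VCAN, the matrix proteoglycan versican, read 364, 325 and 722 CPM in EV, 109.6, 102 and 109 in EHF, 142, 120.1 and 115 in CDX1 and 91.6, 87.9 and 87.5 in EHF+CDX1, with an interaction of 1.64 ± 0.34 (edgeR adjusted p = 0.00639). VCAN was already most of the way down in each single-factor line. ADIRF, a regulator of adipogenesis, averaged 229 ± 9.28 CPM in EV, 80.7 ± 0.947 in EHF, 71.8 ± 9.21 in CDX1 and 60 ± 1.83 in EHF+CDX1, and PLCD1, a phospholipase C, averaged 23.3 ± 3.26 CPM in EV, 10.2 ± 0.985 in EHF, 9.73 ± 0.816 in CDX1 and 8.39 ± 0.189 in EHF+CDX1. Their interactions were 1.24 ± 0.13 and 0.98 ± 0.18.

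The remaining separated genes, 542 above and 456 below, had no called interaction. Their median interactions were 0.51 above and -0.30 below. EHF alone was called higher at 74 of the 542 (13.7%, against 5.67% of all tested genes) and CDX1 alone at 69 (12.7%, against 21.3%). All 542 lay above EV by the separation rule, and EHF+CDX1 against EV was called higher, beyond 1.5-fold, at 243. Near the limit of the separation rule, EML3 was included with its lowest EHF+CDX1 library at 96.81 CPM and the highest other library at 96.76, and PPFIBP1 was left out at 114.5 against 114.6 CPM. Another 213 genes above and 12 below were separated but fell under the filter on low counts and were not tested.

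Other pathways gave fewer members, and the share rests on small numbers in each. Over all tested genes 6.06% were separated above, and 2.59% were separated above with a higher interaction. Some of those separated above with a higher interaction passed the filter on low counts only through their EHF+CDX1 libraries. These were 2 xenobiotic genes, 1 keratin, 1 Wnt gene and 1 gene of the Notch, BMP and Hedgehog list. Of 35 xenobiotic and antioxidant genes 10 were separated above, 4 with a higher interaction (AKR1C1, AKR1C2, ALDH3A1 and ALDH1A1), and SULT2B1 was separated below with a lower one. ALDH1A1, a retinaldehyde dehydrogenase, averaged 0.165 ± 0.128 CPM in EV, 0.0223 ± 0.0211 in EHF, 0.0365 ± 0.0632 in CDX1 and 41.1 ± 4.25 in EHF+CDX1. AKR1C1 and AKR1C2 are nearly identical in sequence, so their counts are uncertain. Of 18 digestion and transport genes 5 were separated above and 2 of these had a higher interaction (AMN and CYP3A5). AMN, part of the vitamin B12 receptor, averaged 3.51 ± 0.879 CPM in EV, 1.36 ± 0.395 in EHF, 2.45 ± 0.651 in CDX1 and 7.06 ± 0.147 in EHF+CDX1. Of 17 keratins 3 were separated above, 2 with a higher interaction (KRT20 and KRT6B). Of 27 Wnt genes 6 were separated above, 2 with a higher interaction (PROX1 and SP5), and of 35 Notch, BMP and Hedgehog genes 4 were separated above, 2 with a higher interaction (IHH and BMP7).

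Over all tested genes 20.2% of interactions were called higher and 18% lower. Lists with more lower than higher calls were mesenchymal and matrix genes (3 higher and 15 lower of 30), inflammatory and NF-kB targets (2 and 14 of 28), p53 targets and cell cycle inhibitors (2 and 18 of 31), ETS factors (2 and 10 of 23), lipid and cholesterol genes (5 and 10 of 37), glycolysis and hypoxia genes (4 and 10 of 35, although the median was 0.14) and S100 proteins and metallothioneins (4 and 7 of 17, or 5 and 4 when scaled by total counts). Summed fibroblast markers, nearly all COL1A1, were 168 to 220 CPM in CDX1 libraries and 34.5 to 76.7 elsewhere, and summed endothelial markers were 0.904 to 2.79 CPM in all libraries. Separated above with a higher interaction were TGFBI and TNC among matrix genes, CCL5 and S100P among inflammatory targets, and SLC2A3 among glycolysis genes. The 2 inflammatory targets and 1 of the matrix genes passed the filter on low counts only through their EHF+CDX1 libraries. SLC2A3, a glucose transporter, averaged 1.26 ± 1.33 CPM in EV, 0.541 ± 0.0683 in EHF, 1.55 ± 0.0169 in CDX1 and 10.2 ± 1.74 in EHF+CDX1 (interaction 4.10 ± 0.72). S100P, IHH and KRT6B rested on EV replicate 3, without which their interactions were -1.12, 0.76 and 1.62 and not called. Separated below with a lower interaction were CDKN1C among p53 targets, SREBF2 among lipid genes, and S100A14 and S100A13 among S100 proteins. Of 23 ETS factors ETV4, ERG and ETV7 were separated above without a called interaction. The enteroendocrine and tuft cell list (16 tested) had 1 separated gene, DCLK1, and 5 higher and 2 lower interactions. None of 30 HOX genes was separated, although 9 had a higher and 8 a lower interaction. By chromosome, the share of tested genes that were separated above with a higher interaction ran from 0.809% on chromosome 16 to 5.08% on chromosome 13.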

How the data were processed

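Per the submitters' processing notes and the study's methods, the authors aligned reads of polyadenylated RNA to GRCh38 with Subread (2.0.0), kept unique matches and deposited counts per gene from featureCounts (2.0.0) over RefSeq exons. The strand setting of the counting is not given in the sources used here, so antisense partners are uncertain. The authors also deposited log2 RPKM values after a filter, voom and quantile normalisation, which served as an alternative only. Genes with at least 0.5 CPM in at least 3 of 12 libraries were tested (0.0585% of counts lay outside), the 4 lines sharing 1 fit without covariates. Normalisation was by TMM and testing by the quasi-likelihood fit and glmTreat of edgeR (4.0.16, R 4.3.3) against a 1.5-fold change, with Benjamini-Hochberg adjustment over all tested genes at 0.05. Fold changes and SE are from the quasi-likelihood fit. A gene was separated when its 3 EHF+CDX1 values in TMM-scaled CPM lay all above or all below the other 9. No sample columns were left unassigned.

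Genes named by rule were 83 in all. Ranked by interaction were the 12 highest above, the 10 lowest below and up to 4 of each opposite kind. These had a symbol, a mean of 1 log2 CPM or more, and over 3 counts somewhere in every line. Without these level requirements came the 8 most abundant with at most 3 counts elsewhere, the 2 largest separated interactions of each of 23 lists, the transgenes, and 12 genes named by the study. Other names were chosen after their values were seen, and a few genes are not reported here by name. The members and lists were chosen with earlier results of these data known. Alternatives were RLE factors, total counts, no filter, thinned counts, a test against no change, a replicate block, limma (3.58.1) voom, DESeq2 (1.42.0), the deposited log2 values, a 1.5-fold gap and omission of each library. Promoter windows came from a RefSeq GRCh38.p14 table. The scripts were tested on simulated data.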

Additional observations from a re-analysis of the deposited data

Results flagged for a closer look

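The EHF effect was called in opposite directions without and with CDX1 at 4 of the named genes, which singled them out. The values are therefore a description. The difference is the interaction, and the p-values given for it above at KRT20, EPS8L3 and TMPRSS4 do not allow for that choice. KRT20 changed by -2.61 ± 0.29 without CDX1 and by 2.96 ± 0.23 with it, a difference of 5.57 ± 0.37 log2 units. EPS8L3 changed by -4.32 ± 0.46 and 3.66 ± 0.38, a difference of 7.98 ± 0.60, and TMPRSS4 by -1.95 ± 0.32 and 4.50 ± 0.31, a difference of 6.45 ± 0.44. AMN changed by -1.36 ± 0.27 and 1.52 ± 0.26, a difference of 2.88 ± 0.37. For KRT20, EPS8L3 and TMPRSS4 all 3 EHF libraries lay below all EV libraries and all 3 EHF+CDX1 libraries above all CDX1 libraries. Such opposite calls were made at 15 separated genes, all lower without and higher with CDX1, and at 307 of all tested genes. CDX1 was about 10 times as abundant in EHF+CDX1 as in CDX1 cells, and its part in the opposite directions was not tested.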

How the results depend on the processing

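The replicate numbers did not pair the libraries (18 correlations of same-numbered deviations from -0.0912 to 0.148, median 0.00545). A fit with the replicate block gave 3097 higher and 2829 lower interactions, 399 genes above and higher, 183 below and lower, 8 above and lower, 3 below and higher and neither single factor called at 191. All 53 named genes with counts in every line kept their call under the block and under RLE factors.

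Of the 411, 403 remained with RLE factors, 391 with total counts, 354 with DESeq2, 335 with limma voom, 309 with the deposited log2 values and 303 after thinning to the smallest library, and of the 185 below, 176, 78, 139, 95, 94 and 142. Total counts gave 429 separated below, 83 of them with a lower and 1 with a higher interaction, and CDX1 alone higher at 45. Thinning gave 13 above with a lower interaction. The test against no change gave 4482 lower interactions, 349 below and lower, 26 above and lower, 16 below and higher, and CDX1 alone higher at 276. limma voom gave 101 below and lower, neither factor called at 283 above and higher, and CDX1 alone higher at 56. The deposited log2 values gave 5 above and lower and 5 below and higher. A required gap of 1.5-fold left 365 above and 8 below, of which 207 were above and higher, 4 below and lower, 0 above and lower and 0 below and higher, and CDX1 alone was higher at 1. The cause of these differences was not tested, except that a required gap and thinning by construction leave fewer genes or fewer counts.

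Omission of 1 library gave 2897 to 3696 higher and 2554 to 3857 lower interactions, 971 to 1239 separated above and 660 to 949 below, 384 to 516 above and higher, 173 to 360 below and lower, 8 to 25 above and lower and 3 to 5 below and higher. Neither factor was called at 173 to 206, and CDX1 alone was higher at 106 to 237. Omission of EV replicate 3 gave 516 above and higher, of which 349 were among the 411, and 360 below and lower, which held all 185, with 25 above and lower and CDX1 alone higher at 237. Above and lower came to 13 without CDX1 replicate 2 or EHF+CDX1 replicate 3. S100P ran from -1.12 to 5.23, reversing without EV replicate 3, and without that library VIL1, IHH and KRT6B lost their calls. FOSB, ELF3, KRT6B, PLCD1, SREBF2, IHH and PSMB8 lost calls under other alternatives. On the linear CPM scale SNTB1 was positive (4.449 CPM). Depth limits the genes near 3 counts, since the smallest library, EHF+CDX1 replicate 3, resolves 0.207 CPM.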

Other observations

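Type III interferon genes, which were picked after their values were seen, were separated above at low levels. IFNL1 averaged 0.0403 ± 0.0373 CPM in EV, 0.103 ± 0.0484 in EHF, 0.0667 ± 0.0406 in CDX1 and 1.28 ± 0.519 in EHF+CDX1. IFNL2 and IFNL3, which are nearly identical in sequence and whose counts are therefore uncertain, averaged 0.86 ± 0.0863 and 1.1 ± 0.125 CPM in EHF+CDX1. None of the 3 had a called interaction (edgeR adjusted p = 0.0679 for IFNL1, 0.127 for IFNL2 and 0.605 for IFNL3).

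A second set of genes was missing from 1 line only. With at most 3 counts in each library of a line and at least 1 CPM in every library of the other lines, 5 genes were absent from EV (among them CCDC122, RND3, TMX4 and PLCB1), and 0 from EHF, CDX1 or EHF+CDX1.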
